A study of Mus musculus with 6 samples.

Results

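The miR-7 family and miR-671 were followed through the small RNA libraries of the nucleus accumbens (NAc) of mice. The members were the 7 of 1364 miRNAs in the count table whose names begin with mmu-miR-7a-, mmu-miR-7b- or mmu-miR-671-. They were mmu-miR-7a-5p, mmu-miR-7b-5p, mmu-miR-7a-1-3p, mmu-miR-7a-2-3p, mmu-miR-7b-3p, mmu-miR-671-5p and mmu-miR-671-3p, and all 7 were counted in all 6 libraries. The mice were male C57BL/6N of 7 to 8 weeks. They were trained for 6 days in conditioned place preference (CPP), a test in which time spent in a drug-paired chamber is scored. The morphine group received 10 mg/kg morphine i.p. in the drug sessions and the saline group received 1 ml/kg saline, and no other agent or allele separated the groups. NAc tissue was taken 0.5 h after the test on day 7. Each group had 3 libraries, which the series record describes as 2 mice each and a legend of the study as 1 mouse each. Nothing further says how the libraries were kept separate, so p-values measure the spread between these libraries.

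miRNAs are cut from a hairpin that leaves a 5p and a 3p strand. Usually the guide strand is loaded into Argonaute and finds targets by its seed, bases 2 to 8, while the passenger strand is mostly lost. In mammalian brain miR-7 is known for its binding to Cdr1as, a circular RNA dense in miR-7 sites. miR-671-5p pairs almost fully with Cdr1as and directs its cleavage, and Cyrano, a long non-coding RNA, pairs with miR-7 in a way that triggers its decay. miR-7 is abundant in neuroendocrine cells and is also expressed in neurons.

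The mature sequences are shown 5′ to 3′ because the 2 miR-7 guide strands are nearly identical and the passenger strands tell the hairpin genes apart. Capitals mark the seed. All 7 members matched a RefSeq mature miRNA (build GRCm38.p6).
miR-7a-5p: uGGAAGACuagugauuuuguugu
miR-7b-5p: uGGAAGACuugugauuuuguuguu
miR-7a-1-3p: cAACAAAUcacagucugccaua
miR-7a-2-3p: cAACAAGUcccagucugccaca
miR-7b-3p: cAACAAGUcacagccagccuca
miR-671-5p: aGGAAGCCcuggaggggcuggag
miR-671-3p: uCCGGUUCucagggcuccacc

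miR-7a-5p and miR-7b-5p shared a seed and differed by 1 substitution over 23 bases, A10U from miR-7a-5p to miR-7b-5p, counted from the 5′ end, and miR-7b-5p is 1 base longer. No other miRNA of the table with a RefSeq sequence had this seed. How reads matching both were counted is not given in the sources used here, so their separate values are uncertain. miR-7a-1-3p and miR-7a-2-3p differed by A7G, A10C and U21C, and A7G lies in the seed. miR-7a-2-3p and miR-7b-3p shared a seed. Among the 1089 miRNAs of the table with a RefSeq sequence, the seeds of miR-7a-1-3p, miR-671-5p and miR-671-3p were each found in no other. GC content ran from 33.3% in miR-7b-5p and 34.8% in miR-7a-5p, through 40.9% in miR-7a-1-3p and 54.5% in miR-7a-2-3p and miR-7b-3p, to 66.7% in miR-671-3p and 69.6% in miR-671-5p.

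The same miR-7a-5p is cut from a pair of hairpins, printed here with their mature arms in capitals, so only the 3p arm shows which gene a read came from.
Mir7-1: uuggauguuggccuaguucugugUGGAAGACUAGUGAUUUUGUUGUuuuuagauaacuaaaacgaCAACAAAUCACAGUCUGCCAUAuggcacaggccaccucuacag
Mir7-2: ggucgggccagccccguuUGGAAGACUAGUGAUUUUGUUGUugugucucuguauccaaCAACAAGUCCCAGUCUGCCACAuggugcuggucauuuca
In the GENCODE vM21 annotation of GRCm38, Mir7-1 (chr13:58392779-58392886, minus strand) lies in an intron of Hnrnpk. Mir7-2 (chr7:78888277-78888373, plus strand) overlaps no other gene of that annotation, although the count table's miR-3529 is named for a hairpin opposite it. Mir7b (chr17:56242988-56243098, plus strand) overlaps none either. Mir671 (chr5:24592114-24592211, plus strand) lies within a coding exon of Chpf2 and opposite an exon of Smarcd3. Whether the authors' counting used strand is not stated in the sources used here, so reads of Smarcd3 could not be told apart from reads of Mir671. Chpf2 lies on the same strand as Mir671, so strand would not tell their reads apart. Some pairs of miRNAs shared their counts and others did not. miR-122-5p and miR-122b-3p had the same count in each of the 6 libraries, as did miR-126a-5p and miR-126b-3p in each saline library. The counts of miR-126a-3p and miR-126b-5p differed in every library. The part of strand in these counts was not tested.

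The partner transcripts were searched for matches, since RefSeq lists C230004F18Rik as a synonym of Cdr1as and 1700020I14Rik as a synonym of Cyrano. Transcript C230004F18Rik-206 of chromosome X, 3354 nt long, held the miR-7 seed match GTCTTCC 123 times, read on the transcript strand only. Of the 8164 GENCODE transcripts within 10% of this length, 27.3% held the match at least 1 time, and the next highest count was 4. Among the other annotated transcripts of this gene, C230004F18Rik-210 held 125 matches, C230004F18Rik-207 held 18 and the rest held 1 or 0. C230004F18Rik-206 is a spliced transcript of 7 exons, and whether it holds the whole circular RNA was not tested. The first match started at 363 nt and the last at 3188 nt, with a median distance of 18 nt from start to start, and 34 of the 123 were followed by A. The first and the last of them are shown with the seed match in capitals and the upstream bases that would face the rest of miR-7.
chrX:61183258-61183280 (plus strand): ggtgccagtaccaagGTCTTCCa
chrX:61186083-61186105 (plus strand): ttccagcatctttatGTCTTCCa
In the same transcript the best ungapped match to miR-671-5p paired 19 of its 23 bases by Watson-Crick pairs, marked by capitals, and 2 more as G:U pairs.
chrX:61186029-61186051 (plus strand): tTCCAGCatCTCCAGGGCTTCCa
In the Cyrano transcript 1700020I14Rik-202, GTCTTCC was found 2 times in 8300 nt, and 13% of the 1092 transcripts within 10% of that length held at least 2. Capitals in its site mark the 13 bases that pair without a break with bases 11 to 23 of miR-7a-5p and the 8 bases that face its 5′ end, with 4 bases between them.
chr2:119602137-119602161 (plus strand): ACAACAAAATCACcaatGTCTTCCA
These matches describe letters in annotated transcripts. Cdr1as and Cyrano themselves were not measured in these libraries.

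**Figure D1:**
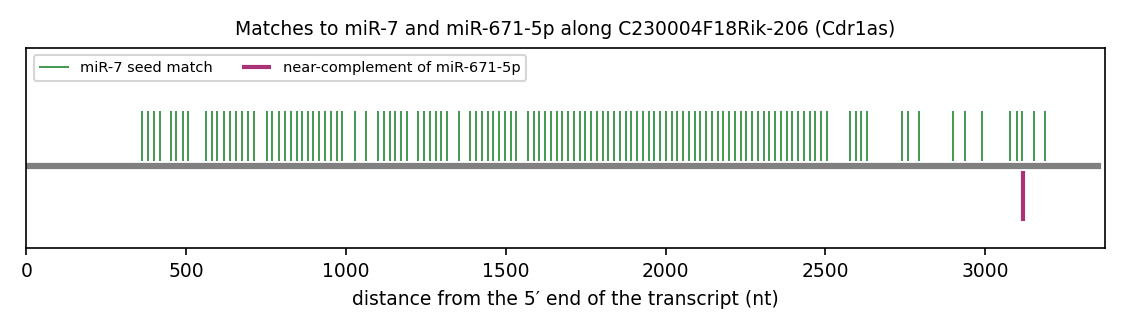
Matches along transcript C230004F18Rik-206, with the distance from its 5′ end in nt on the x axis. Each green line is 1 of the 123 miR-7 seed matches, which run from 363 to 3188 nt, and the purple line is the near-complement of miR-671-5p at 3119 nt.

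The libraries held 4183333 to 9842050 counts each. Levels are given as TMM-scaled CPM, each count relative to the scaled size of its library, which have no term for length, and the mature members are 21 to 24 nt long. Saline replicate 2 stood apart from the other saline libraries. Over 899 miRNAs with at least 10 counts, Spearman's correlation of its levels was 0.869 and 0.874 with saline replicates 1 and 3, and 0.907 to 0.926 with the morphine libraries. Each member is therefore also given without it. DEmiRNAs were called by the study's criteria, which ask for an absolute log2 fold change of 0.58 or more and for unadjusted significance at the 0.05 level. The test was edgeR's quasi-likelihood model fitted over all 1364 miRNAs. These criteria called 19.4% of the table, 9.68% higher and 9.68% lower in the morphine group. Across the table the median log2 fold change was -0.15 with TMM, -0.23 with relative log expression, -0.35 with upper quartile and -0.40 with library total scaling, and it was 0.20 with TMM when saline replicate 2 was left out. All 7 members kept their direction under these 4 scalings.

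Of the 7 members, miR-7a-1-3p was called higher and miR-671-3p lower in the morphine group, and the other 5 were not called, including both abundant guide strands. With Benjamini-Hochberg adjustment over the whole table, 0 of the 7 had an adjusted p under 0.05 by edgeR, against 5.21% of the table, and 1 did by DESeq2. With all 6 libraries DESeq2 gave log2 fold changes of 0.62 (SE 0.88) for miR-7a-5p and 0.63 (SE 0.81) for miR-7b-5p. It gave no p for either, so these guide strands could not be called there. Without saline replicate 2 the criteria called 5 of the 7, miR-7a-5p, miR-7b-5p, miR-7a-1-3p, miR-7a-2-3p and miR-671-3p, against 37.0% of the table. All 5 then had an adjusted p under 0.05, as did 29.1% of the table. DESeq2, also run without this library after the data had been seen, called the same 5. In the edgeR fit without saline replicate 2 the spread was taken from the pool of miRNAs, with no weight on each miRNA's own libraries. Its p-values are therefore not printed, and its standard errors, calls and adjusted p rest on the same spread.

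The guide strands of miR-7 were at similar levels in the 3 morphine libraries and far apart in the saline libraries. miR-7a-5p, the most abundant member, was at 2720, 41066 and 4479 CPM in saline replicates 1, 2 and 3. It was at 26036, 25061 and 25248 CPM in morphine replicates 1, 2 and 3. Saline replicate 2 lay above all morphine libraries and the other saline libraries lay below them, so the groups overlapped. The range within the group was 15.1-fold in saline and 1.04-fold in morphine. Its log2 fold change of 0.66 ± 0.67 (SE) was not called, the Benjamini-Hochberg adjusted p from edgeR being 0.584. Without saline replicate 2 it was 2.82 (SE 0.23), the morphine mean being 7.07-fold the mean of saline replicates 1 and 3. Without saline replicate 1 it was 0.27 (SE 0.55) and without saline replicate 3 it was 0.33 (SE 0.53), neither of them called.

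miR-7b-5p, with the same seed, was at 526, 5904 and 901 CPM in the saline libraries and at 3999.7, 3932 and 3775 CPM in the morphine libraries. The libraries stood in the same arrangement as for miR-7a-5p. Its log2 fold change of 0.68 ± 0.63 (SE) was not called either (edgeR adjusted p = 0.584), and without saline replicate 2 it was 2.45 (SE 0.24). Leaving out saline replicate 1 or saline replicate 3 gave 0.31 (SE 0.55) and 0.39 (SE 0.55), not called. Summed, the miR-7 guide strands took 0.424% (95% Wilson interval 0.418 to 0.430), 3.76% (3.74 to 3.77) and 0.711% (0.705 to 0.717) of the counts in saline replicates 1, 2 and 3. In morphine replicates 1, 2 and 3 they took 2.76% (2.75 to 2.77), 2.71% (2.70 to 2.73) and 2.44% (2.43 to 2.45). These intervals cover counting error only, since PCR reads without molecular identifiers are not independent molecules. When both were counted as 1 miRNA the log2 fold change was 0.68 and was not called.

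The passenger strands of the miR-7a hairpins differed in direction, and miR-7a-1-3p was the member with the clearest separation of groups. miR-7a-1-3p, cut from the Hnrnpk intron, was at 25.8, 36.6 and 20.6 CPM in saline replicates 1, 2 and 3 and at 95.1, 60.8 and 87.5 CPM in morphine replicates 1, 2 and 3. Every morphine library was above every saline library, which held for 1 of the 7 members and for 12.2% of the table, while groups lay apart in either direction for 22.1%. The saline mean was 27.7 ± 8.18 CPM and the morphine mean 81.1 ± 18 CPM (SD, n = 3 each). The log2 fold change of 1.55 ± 0.50 (SE) had an unadjusted p of 0.00592 and an adjusted p of 0.0698 by edgeR. This call was kept in all 17 alternatives, with log2 fold changes from 1.27 to 1.81.

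miR-7a-2-3p, from Mir7-2, was at 107, 39.1 and 92.1 CPM in the saline libraries and at 45.4, 39.3 and 34.9 CPM in the morphine libraries. Saline replicate 2 lay among the morphine libraries and the other saline libraries lay above them. Its log2 fold change of -1.0 ± 0.51 (SE) had an unadjusted p of 0.0678 and an adjusted p of 0.304 by edgeR. It was called at -1.32 (SE 0.33) without saline replicate 2, and also under relative log expression, library total or upper quartile scaling and by DESeq2. miR-7b-3p was the lowest member, counted 14, 12 and 56 times in saline replicates 1, 2 and 3 and 19, 24 and 17 times in morphine replicates 1, 2 and 3. It was not called, the log2 fold change being -0.32 ± 0.69 (SE) with an edgeR adjusted p of 0.800. It was 0.42 without saline replicate 3, the library with 56 counts, and -0.65 (SE 0.51) without saline replicate 2.

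Both strands of miR-671 had lower means in the morphine group, and only the 3p strand was called. miR-671-3p, the more abundant strand in all 6 libraries, was at 118, 39.1 and 114 CPM in saline replicates 1, 2 and 3. It was at 31.5, 43.7 and 37.1 CPM in the morphine libraries, so saline replicate 2 lay within the morphine range. Its log2 fold change of -1.27 ± 0.52 (SE) had an unadjusted p of 0.0252 and an adjusted p of 0.171 by edgeR. The call was lost when any single library other than saline replicate 2 was left out, with log2 fold changes from -1.37 to -0.93. Without saline replicate 2 it was called, at -1.63 (SE 0.32).

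miR-671-5p, the strand that pairs with Cdr1as, was at 12.1, 22.2 and 7.03 CPM in the saline libraries, from 66, 148 and 67 counts. In the morphine libraries it was at 5.20, 5.42 and 7.22 CPM, from 47, 37 and 46 counts. Here saline replicate 2 was the highest library, away from the morphine libraries, unlike in miR-671-3p. The groups overlapped because saline replicate 3 lay below morphine replicate 3. Its log2 fold change by edgeR was -1.21 ± 0.60 (SE), at an unadjusted p of 0.0578 and an adjusted p of 0.284, and without saline replicate 2 it was -0.67 (SE 0.44), in neither case called. It was called without saline replicate 3, at -1.44, and by DESeq2, with a minimum of 10 counts, and with each of the other 3 scalings. The paper includes miR-671-5p in its network, whose miRNAs it reports as lower in the morphine group. By qRT-PCR it also correlated Lnc18qE1, miR-671-5p and Thbs4. There it reports that Lnc18qE1 and miR-671-5p went against the prediction. The paper names no test for miRNAs, so its call and the edgeR result here may come from different tests.

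**Figure D2:**
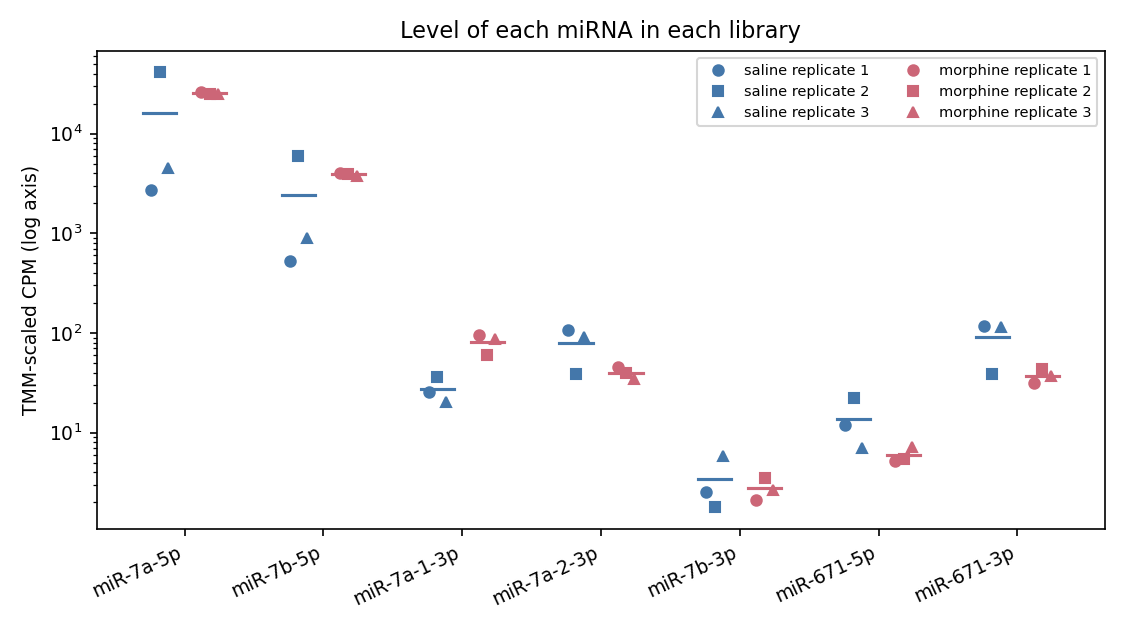
TMM-scaled CPM on a log axis for each of the 7 miRNAs, with saline libraries in blue and morphine libraries in red, the marker shape giving the replicate and the bar the group mean. Saline replicate 2 (blue square) is the highest library for miR-7a-5p at 41066 CPM and lies with the morphine libraries for miR-7a-2-3p and miR-671-3p at 39.1 CPM.

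**Figure D3:**
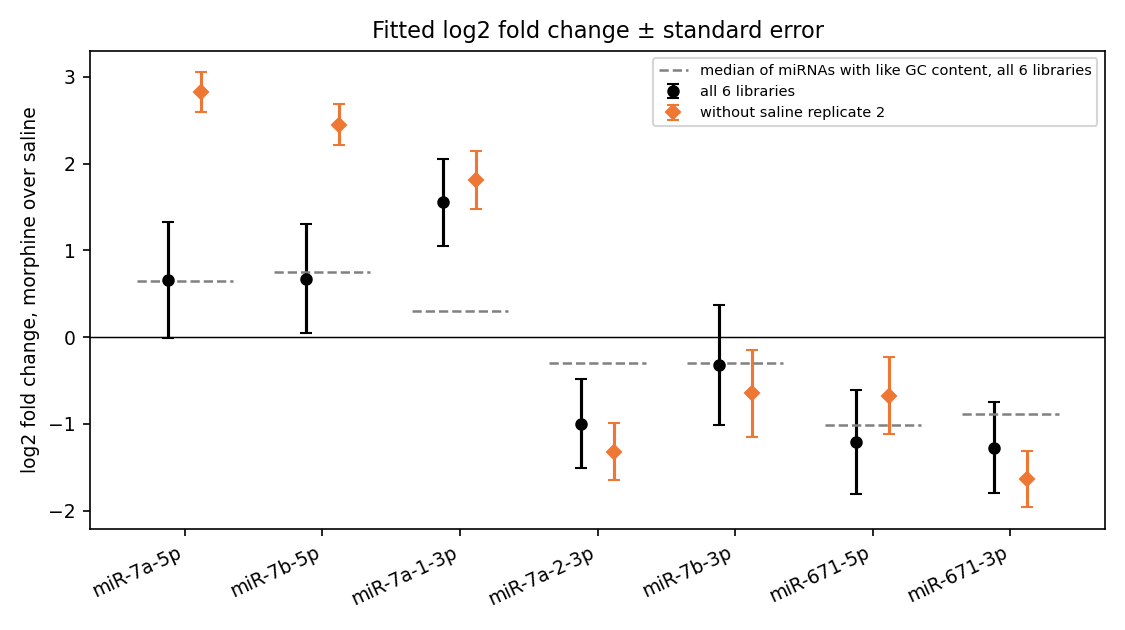
Fitted log2 fold change of morphine over saline for each miRNA, with standard errors as bars, for all 6 libraries (black) and without saline replicate 2 (orange). The dashed grey lines are the median log2 fold change of other miRNAs of like GC content, and miR-7a-5p moves from 0.66 to 2.82 when that library is left out.

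In the order of mean levels of the saline group, miR-7a-5p came first and miR-7b-5p next, followed by miR-671-3p, miR-7a-2-3p, miR-7a-1-3p, miR-671-5p and miR-7b-3p. Neighbours whose ranges overlapped were miR-7a-5p and miR-7b-5p, miR-671-3p and miR-7a-2-3p, and miR-7a-1-3p and miR-671-5p, although the first and the last of these pairs kept their order in each of the 3 libraries. In the morphine group miR-7a-1-3p followed the guide strands, above miR-7a-2-3p and miR-671-3p, and only the ranges of these last 2 overlapped. Among the 1364 miRNAs miR-7a-5p ranked 49, 7 and 28 by level in saline replicates 1, 2 and 3 and 13, 13 and 14 in morphine replicates 1, 2 and 3. miR-7b-5p ranked 101, 39 and 82 in saline and 38, 37 and 38 in morphine, so that saline replicate 2 again stood apart from the other saline libraries.

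Ratios within a library do not depend on its scaling. Their strands can differ in GC content, as miR-7a-1-3p (40.9%) and miR-7a-2-3p (54.5%) do, and its part in the ratios was not tested. miR-7a-1-3p made up 19.4% (95% Wilson interval 16.7 to 22.5), 48.3% (44.0 to 52.7) and 18.2% (16.1 to 20.7) of the miR-7a passenger counts in saline replicates 1, 2 and 3. It made up 67.7% (65.1 to 70.2), 60.8% (57.0 to 64.4) and 71.5% (68.2 to 74.6) in morphine replicates 1, 2 and 3. The passenger strand of Mir7-2 was thus the larger in saline replicates 1 and 3 and that of Mir7-1 the larger in all morphine libraries. In saline replicate 2 they were nearly level, at 261 counts for Mir7-2 and 244 for Mir7-1, within counting error. The log2 ratio was -1.44 ± 1.16 (SD, n = 3) in saline and 1.01 ± 0.35 (SD, n = 3) in morphine. The difference of 2.44 reached the smallest p that 3 libraries against 3 allow (exact two-sided permutation test, p = 0.1, adjusted over 4 ratios p = 0.4), and was 3.11 without saline replicate 2.

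miR-7b-5p held a narrow share of the miR-7 guide counts, 16.2% (15.7 to 16.7), 12.6% (12.5 to 12.7) and 16.8% (16.4 to 17.1) in saline replicates 1, 2 and 3 and 13.3% (13.2 to 13.4), 13.6% (13.4 to 13.7) and 13% (12.9 to 13.2) in morphine replicates 1, 2 and 3. Its log2 ratio to miR-7a-5p differed by -0.21 between the groups (exact two-sided permutation test, p = 0.4). For miR-7b-3p to miR-7b-5p the difference was -1.63 (p = 0.4, same exact test), with saline replicate 2 the lowest library at -11.62 and the other saline libraries the highest at -7.63 and -7.25. miR-671-5p to miR-671-3p differed by 0.06 (p = 1.0, same exact test). In this last ratio saline replicate 2 was again alone, at -0.82, against -3.28 and -4.01 in the other saline libraries and -2.99 to -2.35 in the morphine libraries. Without saline replicate 2 the differences were -0.36, -3.02 and 1.0, and no p under 0.2 is possible there.

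**Figure D4:**
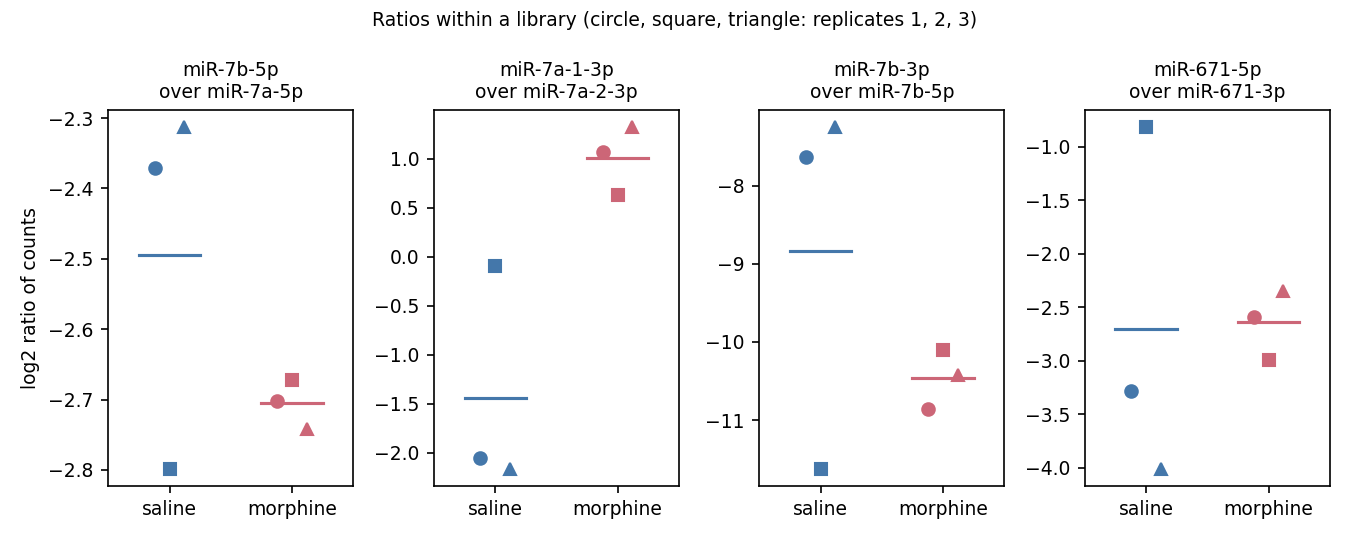
Log2 ratio of counts within each library for 4 pairs of strands, with saline in blue, morphine in red, replicates by marker shape and group means as bars; each panel has its own y axis. The miR-7a-1-3p to miR-7a-2-3p ratio is the only 1 of the 4 in which the groups are apart, with means of -1.44 and 1.01.

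GC content was set beside the fold changes. Over the 734 miRNAs with a RefSeq sequence and at least 10 counts, the log2 fold change and the GC content had a Spearman correlation of -0.36, and the difference of saline replicate 2 from the other saline libraries had -0.62. These are across miRNAs of the same libraries and carry no p. Among 106 other miRNAs within 5 percentage points of the GC content of miR-7a-5p the median log2 fold change was 0.65, against its own 0.66. For miR-671-5p the median of 56 such miRNAs was -1.01, against -1.21, and for miR-671-3p that of 102 was -0.89, against -1.27. miR-7a-1-3p, at 1.55, lay above the upper quartile of 1.12 of its 232 miRNAs, whose median was 0.31. For miR-7a-2-3p the median of 255 was -0.30, against -1.0, and these medians were taken with all 6 libraries. The part of GC content in the members' values was not tested.

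The profiles across the 6 libraries were compared by the root mean square (RMS) difference of centred log2(CPM + 1). miR-7a-5p and miR-7b-5p differed by 0.19, less than either differed from any other member. miR-7a-2-3p and miR-671-3p, from different chromosomes, differed by 0.26, while the strands of miR-671 differed by 0.95. Among 533 other miRNAs with at least 100 counts in total, those most like miR-7a-5p were miR-376b-3p (0.21), miR-384-3p (0.30) and miR-137-3p (0.38). For miR-7b-5p they were miR-376b-3p (0.30), miR-380-3p (0.31) and miR-592-5p (0.32). miR-671-5p was closest to miR-30d-5p (0.22), miR-26a-5p (0.33) and miR-1264-5p (0.35). miR-671-3p was closest to miR-764-5p (0.06), miR-3102-3p.2-3p (0.12) and miR-1198-5p (0.13).

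Markers of cell types were read beside these results. In bulk tissue, fewer cells of a type and less RNA per cell cannot be told apart. Neuronal miRNAs were abundant, with summed levels of 169932 to 306383 CPM in saline and 218783 to 255258 CPM in morphine, and 2 of 12 were called higher, 2 lower and 8 not. The median log2 fold change of the list was -0.23, against -0.15 over the table. The called neuronal miRNAs went both ways, with log2 fold changes of -1.88 (SE 0.45) for miR-124-3p, -2.07 (SE 0.49) for miR-129-5p, 1.53 (SE 0.49) for miR-218-5p and 1.84 (SE 0.53) for miR-488-3p. Of 9 miRNAs of endocrine and related epithelial cells, where miR-7 is also high, 5 were called higher and 0 lower, with a median of 1.84. The higher calls were miR-200a-3p at a log2 fold change of 2.57, miR-200b-3p at 1.84, miR-429-3p at 2.77, miR-182-5p at 1.87 and miR-96-5p at 2.40. Each of these 5 was lower in morphine replicate 2 than in the highest saline library. For miR-96-5p these levels were 3.22 and 5.13 CPM. The summed level of all 9 was 72.1 to 134 CPM in saline and 587, 93.6 and 162 CPM in morphine replicates 1, 2 and 3. Morphine replicate 1 was thus 3.62-fold the next library in this list, while its miR-7a-5p was 1.03-fold that of the next morphine library. The 4 not called were miR-375-3p at -0.70, miR-141-3p at -0.45, miR-200c-3p at 0.35 and miR-183-5p at 1.26. All called members of the neuronal and endocrine lists, and single members of other lists, are named, a choice made after their values were seen. Higher calls were made for 1 of 5 microglia and leukocyte, 1 of 2 endothelial, 1 of 6 choroid plexus and ependyma and 1 of 4 erythroid miRNAs. Lower calls were made for 1 of 3 oligodendrocyte and 1 of 6 choroid plexus and ependyma miRNAs. Counts of 1 in lists this short were not tested against the shares over the table. The median log2 fold changes of these lists were 0.41, 0.73, -0.06, -0.68 and, for oligodendrocytes, -0.31. Summed levels in saline and morphine were 157 to 275 and 858 to 1072 CPM for microglia and leukocytes, and 1485 to 5002 and 10984 to 16264 CPM for endothelium. miR-146a-5p (log2 fold change 2.29) made most of the former, with 835 to 1054 CPM in morphine. miR-126a-3p (2.42) made most of the latter, with 10932 to 16168 CPM in morphine. miR-142a-3p (-0.39), miR-142a-5p (-0.67) and miR-126a-5p (-0.96) went the other way and, like miR-223-3p (0.41) and miR-155-5p (0.89), were not called. In saline and morphine the sums were 1962 to 2791 and 965 to 1049 CPM for choroid plexus and ependyma. They were 216 to 312 and 360 to 572 CPM for erythroid cells, and 1820 to 1903 and 1572 to 1963 CPM for oligodendrocytes. miR-204-5p (-1.50) made most of the choroid plexus and ependyma sum, while miR-34b-3p (1.21) was called higher. The part of these cell types in the members' values was not tested.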

How the data were processed

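Small RNA was sequenced from NAc tissue of 3 saline and 3 morphine libraries, made from 3 μg of total RNA each. The authors kept cleaned reads of 15 to 35 nt, filtered other RNA classes and repeats with Bowtie and matched the rest to miRBase. They deposited raw read counts per mature miRNA, per library. They also deposited TPM values, checked to be each count scaled to the library's total and not used in a test. The genome build, miRBase release and counting rule are not given in the sources used here.

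Groups and replicate numbers came from the sample titles. Counts of all 1364 miRNAs were scaled by TMM and tested by the quasi-likelihood test of edgeR 4.0.16 (R 4.3.3) without covariates, with DESeq2 1.42.0 as an alternative. The model was tested on simulated data. Ratios used counts plus 0.5 and an exact permutation test (SciPy 1.17.1). miRNAs named beside the members were the 3 nearest profiles of 4 members and examples from marker lists. No pair of libraries agreed within sampling noise. The smallest chi-square per degree of freedom was 91.1. The opposite-strand miR-3529 was not analysed here. Members and lists were chosen with earlier results of these data known.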

Additional observations from a re-analysis of the deposited data

How the results depend on the processing

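By the study's criteria, 2 of the 7 members were called with all 6 libraries, 4 with relative log expression, library total or upper quartile scaling or with DESeq2, and 1 to 5 when a library was left out. The same settings called 264 of all 1364 miRNAs with TMM and 267, 298, 297 and 235 in that order. DESeq2 with all 6 libraries gave no p for miR-7a-5p and miR-7b-5p, so neither could be called there. At an adjusted p under 0.05 there were 0, but 1 with library total or upper quartile scaling (miR-671-3p) and 1 with DESeq2, the filterByExpr filter or miRBase names only (miR-7a-1-3p), and 0 to 5 when a library was left out. At that level 71 miRNAs of the whole table passed, against 160 with library total and 153 with upper quartile scaling, 156 with DESeq2, 56 of 594 with filterByExpr and 110 of 1281 with miRBase names only. DESeq2 without saline replicate 2, a setting chosen after seeing the data, gave 5 by either rule. Of all miRNAs, 176 to 492 were called when a library was left out and 406 by DESeq2 without saline replicate 2. The split of higher calls was 50.0% with TMM, 34.9% with library totals and 37.7% with upper quartile. The cause of these shifts was not tested. Leaving out a library moved the difference in log2 ratio between -0.59 and 1.0 for miR-671-5p to miR-671-3p, where it changed sign without saline replicate 1 (-0.23), saline replicate 3 (-0.59) and morphine replicate 3 (-0.09). For miR-7b-3p the log2 fold change ranged from -0.65 to 0.42 when a library was left out, and turned positive without saline replicate 3. Same-numbered libraries had deviations correlated at -0.23, -0.28 and 0.14, and differently numbered libraries at -0.33 to 0.33. Deviations within a group depend on each other, so these values cannot settle whether the numbers pair the libraries. With the replicate number as a block, 3 members were called, miR-7a-5p at 1.80, miR-7b-5p at 1.54 and miR-7a-1-3p at 1.57, while miR-671-3p (-1.14) was not, 0 had an adjusted p under 0.05, 179 miRNAs of the table were called, and the exact sign-flip test gave p = 0.25 for the miR-7a-1-3p to miR-7a-2-3p ratio, the smallest that 3 pairs allow. miR-7b-3p, with 12 to 56 counts per library, was the member with the least depth.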
